A study of Mus musculus with 4 samples.

Results

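The genes described here are 48 genes of DNA replication licensing and the replication fork, measured by RNA sequencing of whole testes at postnatal day 10 (P10). They were chosen by name from the textbook machinery, with earlier results of these data already known. All 48 were found among the 55820 loci of the deposited table, and all 48 passed edgeR's filter on low counts. The series has 4 libraries from male C57BL/6J mice, 2 from control testes and 2 from Mps1sKO testes. In Mps1sKO mice, *Stra8*-Cre removes *Mps1* in germ cells from early spermatogonia onward, so the deletion is directed at germ cells and not at the somatic cells of the testis. The labels call the other group control and give no further genotype for it, and they do not state whether 1 library is 1 mouse. The p-values below therefore measure the spread between these libraries, which may be partly technical.

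A replication origin is licensed in G1, when the origin recognition complex, CDC6 and CDT1 load the MCM2-7 helicase onto DNA, and geminin blocks CDT1 once S phase has begun. The kinase CDC7 with DBF4 then fires the origin, CDC45 and GINS turn MCM2-7 into a running helicase, and primase, the polymerases, the PCNA clamp, FEN1 and ligase copy the strands. In the young testis, spermatogonia divide by mitosis and preleptotene spermatocytes pass through the last S phase before meiosis, while Sertoli cells are still dividing, so transcripts of this machinery come from several cell types.

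Many replication genes are known targets of E2F transcription factors, and the promoters of these genes were searched for E2F letters. The RefSeq promoter windows on GRCm38.p6 run from 250 bases before to 50 bases after a start site, and 40 of the 48 genes have one. The E2F letters searched were TTTCCCGC, TTTGGCGC, TTTCGCGC and TTTGCCGC on both strands, and their matches can overlap each other. At least 1 match was found in 16 of the 40 genes (40%), against 2.61% of the 27025 genes with a window and 3.32% of the protein-coding genes with one. The stretches below show such matches in capitals for a helicase loader, MCM subunits and the catalytic subunit of polymerase alpha, from genes that differ in how they behaved in Mps1sKO testes.
Cdc6, chr11:98907987-98908046, plus strand: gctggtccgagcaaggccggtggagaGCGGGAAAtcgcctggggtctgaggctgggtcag
Mcm5, chr8:75109330-75109389, plus strand: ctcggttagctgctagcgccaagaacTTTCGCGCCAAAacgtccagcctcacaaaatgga
Mcm6, chr1:128359782-128359841, minus strand: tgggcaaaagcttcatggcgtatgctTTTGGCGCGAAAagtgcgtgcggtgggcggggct
Mcm6, chr1:128359719-128359778, minus strand: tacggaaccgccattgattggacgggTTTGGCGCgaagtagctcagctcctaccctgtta
Pola1, chrX:93632260-93632319, minus strand: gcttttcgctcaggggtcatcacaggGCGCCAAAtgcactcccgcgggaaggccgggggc
In *Mcm5* and in the first *Mcm6* stretch the capitals hold 2 overlapping matches. GENCODE M21 places the *Cdc6* stretch in an intron of a longer *Cdc6* transcript and the other 4 stretches between genes. Each match lies before the RefSeq start site, 138 bases upstream in *Cdc6* and *Pola1*.

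The targeted gene was checked first. *Ttk*, which encodes MPS1, stood at 27.9 and 32.6 CPM in the control libraries and at 13.03 and 12.2 CPM in the Mps1sKO libraries, where CPM are counts scaled to the library size by edgeR's TMM method. The log2 fold change, here and below Mps1sKO relative to control, was −1.26 (standard error 0.129, adjusted p = 0.0461 by edgeR's quasi-likelihood test), in the direction of the labels. The 4 libraries held 23311689 to 28607746 counts, and each replication gene had between 130 and 5959 counts in each library. With 2 libraries against 2, an exact permutation test cannot go below p = 0.333, so all tests come from models fitted across the 20561 tested loci.

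Most replication genes stood slightly lower in Mps1sKO than in control testes. The 48 genes together summed to 3245 and 3603 CPM in the control libraries and to 3150 and 2875 CPM in the Mps1sKO libraries, 88.0% of the control mean, and the groups did not overlap. The median log2 fold change was −0.17, against 0.00 over all tested loci, and 43 of the 48 genes had a fold change below 0, against 49.9% of all loci. Relaxed cut-offs, an unadjusted p below 0.05 and a change of more than 1.2-fold, were used here in both directions, although the study applied them to higher genes only. At these, 12 of the 48 genes were lower (4.95% of all tested loci) and 0 were higher (3.09% of all tested loci). The 12 are *Cdc6*, *Gmnn*, *Mcm5*, *Cdc45*, *Gins1*, *Rfc4*, *Prim1*, *Prim2*, *Fen1*, *Lig1*, *Rpa2* and *Rrm2*.

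None of the 48 passed an adjusted p of 0.05 by edgeR, which 6 loci did (0.0292% of those tested), and none passed it by DESeq2, while 14 genes by edgeR and 11 by DESeq2 had an unadjusted p below 0.05. All 14 were lower (5.37% of loci lower and 3.92% higher at that p by edgeR). The 11 were also lower at the relaxed cut-offs by DESeq2, as were 1.65% of the 35262 loci that it tested. That set includes low-count loci that edgeR left out, so its share is not comparable with the edgeR shares. Of the 20561 loci that edgeR tested, 1121 had an unadjusted p below 0.05 by DESeq2, in either direction. The stricter cut-offs were an unadjusted p below 0.01 and a change of more than 1.5-fold. The study used these in both directions before it relaxed them for higher genes. They were met by 0 of the 48 genes (0.681% of loci lower and 0.146% higher). The 95% intervals of 37 genes exclude a 1.5-fold change in either direction, and those of all 48 exclude a 2-fold change. The shares of all tested loci with such intervals are not given here, so these counts show nothing particular to the 48. The count of 12 depends on the libraries: without control replicate 2 it was 1, *Prim2* (2.28% of loci), and without Mps1sKO replicate 1 it was 20 (6.83% of loci). With the replicate number as a block it was 7 (3.34% of loci), and with the numbers crossed it was 13 (6.46% of loci).

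**Figure D1:**
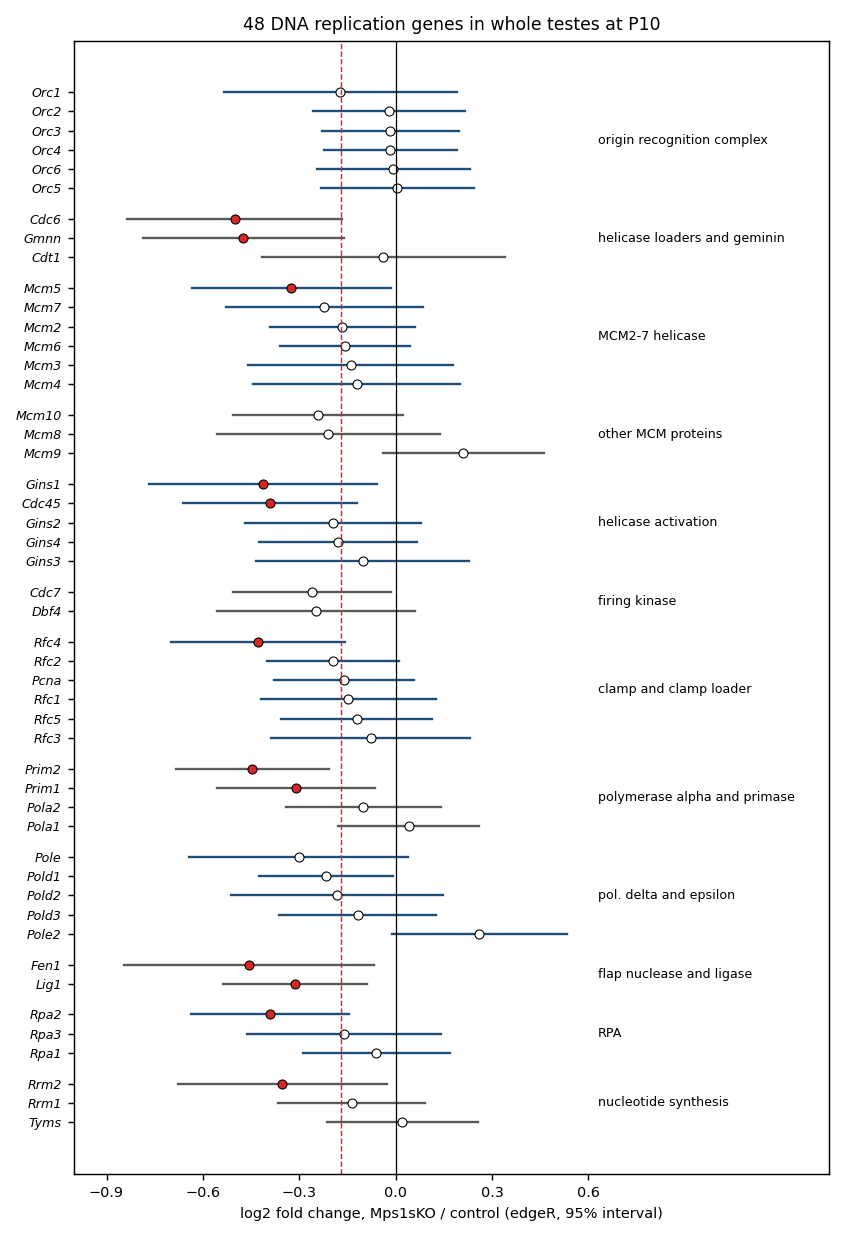
Log2 fold change of the 48 genes in Mps1sKO relative to control testes on the x axis, grouped by role, from edgeR with 2 libraries per group. Circles are the fitted values, lines their 95% intervals, filled circles the 12 genes past the relaxed cut-offs, and the dashed line the median of the 48 genes (−0.17). All but 5 circles lie left of 0, the origin recognition complex lies close to 0 apart from *Orc1*, and no interval lies wholly right of 0.

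Levels of cell type markers also differed between the groups, in opposite directions for germ cell and Sertoli markers. All 10 germ cell markers, *Ddx4* and *Dazl* among them, had a fold change below 0, and 9 were lower at the relaxed cut-offs (4.95% of all tested loci). By DESeq2, 3 had an adjusted p below 0.05, as did 37 of the 20561 loci that edgeR tested. By edgeR, 0 of the 10 did. The 10 markers summed to 1500 to 1775 CPM in control and 1048 to 1352 CPM in Mps1sKO libraries, and none stood at 0. Of the 11 Sertoli markers tested, all 11 had a fold change above 0 and 4 were higher at the cut-offs (3.09% of all tested loci). The Sertoli sums were 5337 to 5757 CPM in control and 6294 to 7098 CPM in Mps1sKO libraries. *Rhox5*, the twelfth Sertoli marker, was too low to test, with 1 and 0 counts in the control and 0 and 0 in the Mps1sKO libraries. In whole testes, fewer cells of a type and less RNA per cell cannot be told apart, and the part of cell makeup in the replication result was not tested.

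The 2 libraries of a group also differed from each other. Control replicate 2 lay above control replicate 1 for 39 of the 48 genes (median log2 difference 0.14), against 10184 of the 20561 tested loci. Mps1sKO replicate 2 lay below Mps1sKO replicate 1 for 32 of the 48 (median −0.13), against 10329 of the 20561. The median gene stood at −0.07 and 0.07 in the control libraries and at −0.12 and −0.21 in the Mps1sKO libraries, on a log2 scale relative to the control mean. The germ cell markers had the same order, with medians of −0.10, 0.10, −0.32 and −0.65. Both Mps1sKO libraries lay below both control libraries for 22 of the 48 genes (21.1% of all loci) and above them for 3 genes, *Mcm9*, *Pola1* and *Pole2* (20.3% of all loci).

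**Figure D2:**
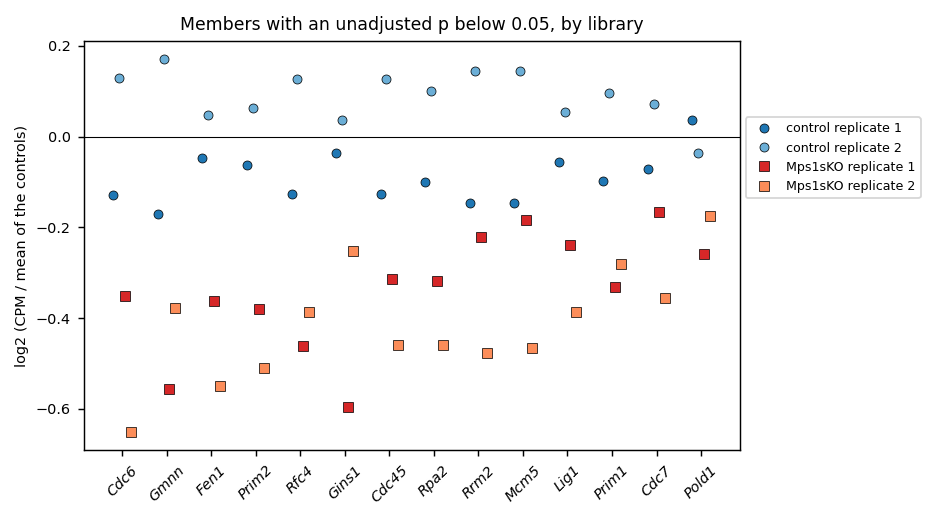
Level of the 14 genes with an unadjusted p below 0.05 in each of the 4 libraries, as log2 of CPM over the mean of the 2 control libraries (y axis). Circles are control and squares Mps1sKO libraries, and *Cdc7* and *Pold1* are the 2 genes that miss the fold change cut-off. Every square lies below both circles of its gene, the lowest being *Cdc6* in Mps1sKO replicate 2.

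The origin recognition complex, ORC1 to ORC6, marks origins and is the platform on which the helicase is loaded. Of its 6 genes, 0 passed the cut-offs in either direction. For this role and those below, the shares of all tested loci past the cut-offs are 4.95% lower and 3.09% higher. A role has so few genes that its count, 0 included, is not a result about the role. The 6 genes had a median log2 fold change of −0.02. They summed to 301 and 310 CPM in control and 313 and 286 CPM in Mps1sKO libraries. *Orc1*, the subunit whose level varies most with the cell cycle in mammalian cells, had the lowest fold change of the group, at 30.1 and 36.2 CPM against 33.4 and 25.5 CPM. For *Orc1*, the log2 fold change was −0.17 (95% interval −0.53 to 0.19, edgeR adjusted p = 0.754), and the groups overlapped. *Orc5*, a core subunit, stood at 34.7 and 31.6 CPM against 33.1 and 33.4 CPM, with a log2 fold change of 0.01 (95% interval −0.23 to 0.24, edgeR adjusted p = 0.995). The fold changes of *Orc2*, *Orc3*, *Orc4* and *Orc6* lay between −0.02 and −0.01. The other 42 genes had a median of −0.19, and a difference between them and the complex was not tested. *Orc2* shares 29.8% of its exonic bases with *Nif3l1* on the opposite strand, and since the strand setting of the counting is not given in the sources used here, reads of the pair cannot be told apart.

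Among the factors that load the helicase, 2 of 3 genes were lower, *Cdc6* and *Gmnn*. *Cdc6* (chr11:98907801-98923940), the ATPase that joins the origin recognition complex to receive MCM2-7, had the lowest fold change of the 48. It stood at 27.7 and 33.1 CPM in control and at 23.7 and 19.3 CPM in Mps1sKO libraries. The groups did not overlap, and the log2 fold change was −0.50 (standard error 0.144, unadjusted p = 0.00896, adjusted p = 0.494 by edgeR). *Gmnn* (chr13:24751845-24761923), which encodes geminin, the inhibitor of CDT1, stood at 42.2 and 53.4 CPM in control and at 32.3 and 36.5 CPM in Mps1sKO libraries. Here too the groups were apart, and the log2 fold change was −0.47 (standard error 0.135, unadjusted p = 0.00853, adjusted p = 0.494 by edgeR). *Cdt1*, the loader that geminin blocks, had one high and one low library in each group, 34.2 and 25.5 CPM against 26.2 and 31.8 CPM. For *Cdt1*, the log2 fold change was −0.04 (95% interval −0.42 to 0.34, edgeR adjusted p = 0.961).

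The MCM2-7 helicase unwinds DNA ahead of the fork, and its 6 subunits act as 1 ring. All 6 genes had a fold change below 0, with a median of −0.16, and 1, *Mcm5*, was lower at the cut-offs. The 6 genes summed to 844 and 974 CPM in control and to 860 and 734 CPM in Mps1sKO libraries, so control replicate 1 lay below Mps1sKO replicate 1. *Mcm5* (chr8:75109569-75128439) stood at 127 and 156 CPM against 124 and 102 CPM, with both Mps1sKO values under both controls but 1 of them close to control replicate 1. For *Mcm5*, the log2 fold change was −0.33 (standard error 0.133, unadjusted p = 0.0416, adjusted p = 0.527 by edgeR). *Mcm4* had the smallest difference, at 93.5 and 106 CPM against 104 and 79.3 CPM, a log2 fold change of −0.12 (95% interval −0.44 to 0.20, edgeR adjusted p = 0.808). Between these, *Mcm7*, *Mcm2*, *Mcm6* and *Mcm3* had fold changes of −0.22 to −0.14, none past the test. Within groups, all 6 were higher in control replicate 2 than in control replicate 1, and all 6 lower in Mps1sKO replicate 2 than in Mps1sKO replicate 1. Of the 20561 tested loci, 10184 and 10329 did so. This order is not particular to the ring. It held for 10 and 10 of the 10 germ cell markers and 22 and 21 of 22 meiotic prophase genes, but for only 11 and 14 of 23 G1/S regulators. *Mcm7* has a processed pseudogene, *Gm5487*, 97.7% identical over 72.8% of its transcript, which took 11 to 19 counts in a library.

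Of the 3 MCM proteins outside that ring, *Mcm9* went the other way without passing the test. MCM8 and MCM9 form a helicase of recombination, and MCM10 supports the start of the fork. *Mcm9* stood at 29.6 and 30.2 CPM in control and at 36.8 and 32.4 CPM in Mps1sKO libraries, both above both controls. For *Mcm9*, the log2 fold change was 0.21 (95% interval −0.04 to 0.46, unadjusted p = 0.0890, adjusted p = 0.586 by edgeR). It shares 19.2% of its exonic bases with *Asf1a* on the opposite strand. *Mcm10* stood at 36.7 and 38.0 CPM against 34.2 and 28.995 CPM, without overlap, and its log2 fold change of −0.24 did not pass the test (95% interval −0.51 to 0.02, unadjusted p = 0.0674, adjusted p = 0.563 by edgeR). The fold change of *Mcm8* was −0.21, with overlapping groups.

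CDC45 and the 4 GINS proteins convert the loaded MCM ring into the active helicase. All 5 genes had a fold change below 0 and 2, *Gins1* and *Cdc45*, were lower at the cut-offs. *Gins1* (chr2:150905400-150931280), a GINS subunit, stood at 15.3 and 16.1 CPM in control and at 10.4 and 13.1 CPM in Mps1sKO libraries. The control libraries nearly coincided and the Mps1sKO libraries lay apart below them, and the log2 fold change was −0.41 (standard error 0.153, unadjusted p = 0.0283, adjusted p = 0.514 by edgeR). *Cdc45* (chr16:18780447-18811987) stood at 54.7 and 65.2 CPM against 48.03 and 43.4 CPM. For *Cdc45*, the log2 fold change was −0.39 (standard error 0.116, unadjusted p = 0.0104, adjusted p = 0.494 by edgeR), and the groups did not overlap. *Gins3* had the smallest difference of the group, at 13.4 and 16.1 CPM against 14.2 and 13.2 CPM, a log2 fold change of −0.10 (95% interval −0.43 to 0.23, edgeR adjusted p = 0.845). *Gins2* and *Gins4* had fold changes of −0.19 and −0.18 without overlap and did not pass the test. *Gins2* shares 67.3% of its exonic bases with *Gse1* on the opposite strand, so its value is uncertain.

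The kinase that fires origins has a catalytic subunit, CDC7, and an activating subunit, DBF4. *Cdc7* stood at 72.1 and 79.6 CPM in control and at 67.5 and 59.2 CPM in Mps1sKO libraries, without overlap. For *Cdc7*, the log2 fold change was −0.26 (standard error 0.106, unadjusted p = 0.0406, adjusted p = 0.527 by edgeR), which misses the fold change cut-off. *Dbf4* stood at 67.2 and 77.9 CPM against 68.1 and 54.1 CPM, where 1 Mps1sKO library lay between the controls. Its log2 fold change of −0.25 did not pass the test (95% interval −0.56 to 0.06, unadjusted p = 0.0992, adjusted p = 0.595 by edgeR).

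PCNA is the sliding clamp that holds polymerases on DNA, and RFC1 to RFC5 form the loader that opens it. All 6 genes had a fold change below 0, with a median of −0.15, and *Rfc4* was the 1 past the cut-offs. *Rfc4* (chr16:23113943-23127737), a small subunit of the loader, stood at 37.7 and 44.9 CPM in control and at 29.9 and 31.4 CPM in Mps1sKO libraries. The groups did not overlap, and the log2 fold change was −0.43 (standard error 0.116, unadjusted p = 0.00668, adjusted p = 0.494 by edgeR). It shares 12.7% of its exonic bases with *Eif4a2* on the opposite strand, a gene with far more counts. *Rfc3*, also a small subunit, stood at 32.5 and 37.2 CPM against 36.6 and 29.6 CPM, with a log2 fold change of −0.08 (95% interval −0.39 to 0.23, edgeR adjusted p = 0.881). The fold change of *Pcna* itself was −0.16 (95% interval −0.38 to 0.06, edgeR adjusted p = 0.619), and those of *Rfc1*, *Rfc2* and *Rfc5* lay between −0.20 and −0.12.

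Polymerase alpha with primase lays down the short RNA and DNA primers that start each strand, and its genes split into pairs. Both primase genes were lower, and neither polymerase gene was. *Prim2* (chr1:33453810-33669795), the regulatory subunit of primase, stood at 46.2 and 50.4 CPM in control and at 37.1 and 33.9 CPM in Mps1sKO libraries. With both groups tight and apart, the log2 fold change was −0.45 (standard error 0.102), and its unadjusted p of 0.00269 was the smallest of the 48 (adjusted p = 0.494 by edgeR). *Prim1* (chr10:128015168-128030037), the catalytic subunit of primase, stood at 41.2 and 47.1 CPM against 35.0 and 36.2 CPM. For *Prim1*, the log2 fold change was −0.31 (standard error 0.106, unadjusted p = 0.0198, adjusted p = 0.502 by edgeR), and the groups did not overlap. *Pola1*, the catalytic polymerase subunit, was nearly level at 36.1 and 35.9 CPM against 36.5 and 37.6 CPM, a log2 fold change of 0.04 (95% interval −0.18 to 0.26, edgeR adjusted p = 0.919). *Pola2*, the other polymerase subunit, had a fold change of −0.10 with overlapping groups. The difference between the primase and the polymerase genes was not tested.

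Polymerases delta and epsilon extend the lagging and the leading strand. Of their 5 genes, 0 passed the cut-offs (4.95% of all tested loci lower and 3.09% higher). *Pole*, the catalytic subunit of epsilon, stood at 130 and 161 CPM in control and at 133 and 104 CPM in Mps1sKO libraries, which overlap. For *Pole*, the log2 fold change was −0.30 (95% interval −0.64 to 0.04, unadjusted p = 0.0743, adjusted p = 0.573 by edgeR). *Pole2*, the second subunit of epsilon, had the highest fold change of the 48 genes, at 15.6 and 16.0 CPM against 18.6 and 19.2 CPM. Both Mps1sKO libraries lay above both controls, with a log2 fold change of 0.26 that did not pass the test (95% interval −0.01 to 0.53, unadjusted p = 0.0581, adjusted p = 0.551 by edgeR). *Pold1*, the catalytic subunit of delta, stood at 92.2 and 87.7 CPM against 75.1 and 79.7 CPM, without overlap. Its log2 fold change of −0.22 (standard error 0.0899, unadjusted p = 0.0444, adjusted p = 0.529 by edgeR) misses the fold change cut-off. *Pold2* and *Pold3*, accessory subunits of delta, had fold changes of −0.18 and −0.12 with overlapping groups.

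Both genes that finish the lagging strand were lower. FEN1 trims the flap left at the end of each fragment, and LIG1 seals the nick. *Lig1* (chr7:13277283-13311433) stood at 104 and 112 CPM in control and at 91.1 and 82.3 CPM in Mps1sKO libraries. The groups were apart, and the log2 fold change was −0.31 (standard error 0.0966, unadjusted p = 0.0127, adjusted p = 0.494 by edgeR). *Fen1* (chr19:10199132-10204169) stood at 6.98 and 7.45 CPM against 5.61 and 4.93 CPM, without overlap. For *Fen1*, the log2 fold change was −0.46 (standard error 0.167, unadjusted p = 0.0272, adjusted p = 0.511 by edgeR), and DESeq2 gave an unadjusted p of 0.0929. Other genes on the opposite strand, chiefly *Gm10143*, cover 84.2% of its exonic bases, so both its low level and its change are uncertain.

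The 3 subunits of RPA coat single-stranded DNA at the fork, and 1 of the 3 genes was lower. *Rpa2* (chr4:132768332-132778752), the middle subunit, stood at 112 and 129 CPM in control and at 96.3 and 87.2 CPM in Mps1sKO libraries. No Mps1sKO library reached a control library, and the log2 fold change was −0.39 (standard error 0.105, unadjusted p = 0.0064, adjusted p = 0.494 by edgeR). *Rpa1*, the large subunit, stood at 102 and 112 CPM against 108 and 97.1 CPM, a log2 fold change of −0.06 (95% interval −0.29 to 0.17, edgeR adjusted p = 0.874). The fold change of *Rpa3*, the small subunit, was −0.16 with overlapping groups.

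Of the 3 genes of nucleotide synthesis, *Rrm2* was lower and the others did not pass the test. Ribonucleotide reductase makes deoxynucleotides from a large subunit, RRM1, and a small subunit, RRM2, whose level follows S phase in cultured cells. *Rrm2* (chr12:24708241-24714146) stood at 30.7 and 37.6 CPM in control and at 29.2 and 24.4 CPM in Mps1sKO libraries, with 1 Mps1sKO library just under control replicate 1. For *Rrm2*, the log2 fold change was −0.35 (standard error 0.140, unadjusted p = 0.0369, adjusted p = 0.527 by edgeR). *Tyms*, thymidylate synthase, was level at 28.2 and 27.5 CPM against 28.7 and 27.8 CPM, a log2 fold change of 0.02 (95% interval −0.21 to 0.26, edgeR adjusted p = 0.967). The fold change of *Rrm1* was −0.14 with overlapping groups.

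Levels per length were read from the deposited FPKM values (fragments per kilobase, scaled to the library size). The length used there covers all annotated exons of a gene, which can exceed a single transcript. For *Mcm7* it is 4426 bases, against 2962 in its longest protein-coding transcript. Ranks and ratios between genes on this scale therefore depend partly on the annotation. *Pcna* was the highest at 63.0 ± 5.38 FPKM in control and 56.6 ± 0.510 FPKM in Mps1sKO testes (SD, n = 2). Next came *Mcm7* at 42.0 ± 5.60 FPKM and *Rpa2* at 39.9 ± 3.999 FPKM in control testes (SD, n = 2), which do not differ beyond their spread. The 6 subunits of the MCM ring lay within 1.76-fold of each other in control testes, from *Mcm2* at 23.8 ± 1.78 FPKM to *Mcm7*, and within 1.70-fold in Mps1sKO testes. At the low end stood *Fen1*, whose level is uncertain for its overlap with genes on the opposite strand, at 2.96 ± 0.142, *Mcm9* at 3.25 ± 0.0546 and *Pola1* at 4.05 ± 0.00429 FPKM in control testes (SD, n = 2). On this scale *Pola1* was the lowest subunit of its enzyme and *Prim1* the highest, at 11.3 ± 1.10 FPKM in control testes (SD, n = 2).

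**Figure D3:**
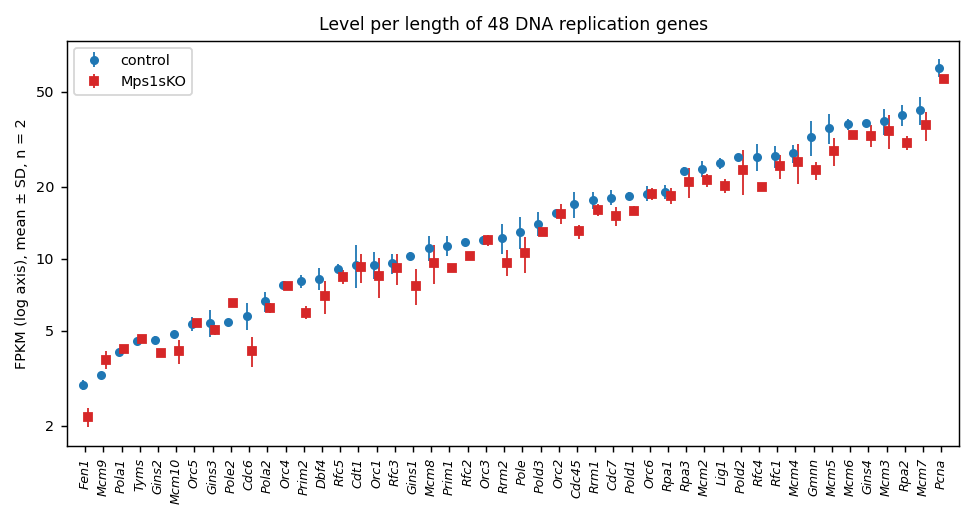
FPKM of the 48 genes (y axis, log scale), ordered by the control mean, as mean ± SD over 2 libraries, with circles for control and squares for Mps1sKO testes. *Pcna* lies at the top and *Fen1*, whose low level is uncertain because other genes cover 84.2% of its exonic bases, at the bottom, and for most genes the square lies slightly below the circle.

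The E2F letters did not separate the genes that were lower from the others. Among the 16 genes with a match, 3 were lower at the cut-offs, *Cdc6*, *Mcm5* and *Lig1*, and the median log2 fold change was −0.15, from −0.50 for *Cdc6* to 0.26 for *Pole2*. Among the 24 genes with a window and no match, 6 were lower and the median was −0.16. The 8 genes without a window had a median of −0.25 with 3 lower, *Gmnn*, *Gins1* and *Prim2*. Of the 5 MCM ring genes with a window, 4 held a match, as did 2 of the 6 origin recognition complex genes, *Orc1* and *Orc3*. The NF-Y letters CCAAT, on both strands, were in a window of 62.5% of the 40 genes, against 41.1% of all genes with a window. The letters TTTGAA of the CHR element, found in genes of mitosis, were in 17.5% against 20.2% on both strands. A match is a description of these letters and no evidence of binding.

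Other genes of replication and of the neighbouring cell cycle phases were read from lists. Beside the counts of each list stand the shares of all tested loci at the relaxed cut-offs, 4.95% lower and 3.09% higher. Of 31 other fork and initiation factors tested, 26 had a fold change below 0, 9 were lower at the relaxed cut-offs and 0 higher, with a median of −0.16. *Recql4*, a helicase of origin firing, stood at 49.3 and 56.2 CPM against 37.5 and 38.1 CPM, a log2 fold change of −0.48 (standard error 0.103, unadjusted p = 0.00181, adjusted p = 0.494 by edgeR). *Asf1b*, a histone chaperone of dividing cells, stood at 38.8 and 46.4 CPM against 32.0 and 28.1 CPM, a log2 fold change of −0.51 (standard error 0.125, unadjusted p = 0.00414, adjusted p = 0.494 by edgeR). In both, the groups did not overlap. *Chaf1b*, a subunit of the chaperone that follows the fork, had the highest fold change of that list, 0.16 at 20.1 and 21.3 CPM against 22.5 and 23.8 CPM (unadjusted p = 0.189 by edgeR), which did not pass the test.

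Enzymes of nucleotide supply and regulators of the G1/S step had medians closer to 0. Of 10 other nucleotide supply enzymes, 2 were lower and 0 higher, with a median of −0.03. *Dctpp1*, which clears modified nucleotides, stood at 45.6 and 49.7 CPM against 33.1 and 40.3 CPM, a log2 fold change of −0.38 (unadjusted p = 0.0150, adjusted p = 0.497 by edgeR). *Dck*, the deoxycytidine salvage kinase, stood at 44.6 and 52.4 CPM against 43.1 and 33.8 CPM, a log2 fold change of −0.34 (unadjusted p = 0.0445, adjusted p = 0.529 by edgeR). In both, the groups did not overlap. Of 23 G1/S regulators, 4 were lower and 1 higher, with a median of −0.09. *E2f2*, an activating E2F, stood at 12.6 and 12.1 CPM against 9.19 and 7.99 CPM, a log2 fold change of −0.52 (unadjusted p = 0.00755, adjusted p = 0.494 by edgeR). The 1 higher gene was *Ccnd2*, cyclin D2, at 215 and 182 CPM against 254 and 235 CPM, a log2 fold change of 0.30 (unadjusted p = 0.0244, adjusted p = 0.507 by edgeR).

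The lists of later stages had lower medians than the replication genes. Of 20 genes of G2 and mitosis, 19 had a fold change below 0 and 11 were lower at the cut-offs, with a median of −0.30 and a summed level of 80.7% of control. *Kif11*, the motor that separates spindle poles, stood at 11.1 and 11.3 CPM against 5.87 and 7.95 CPM, a log2 fold change of −0.69 (unadjusted p = 0.00543, adjusted p = 0.494 by edgeR). *Cdk1*, the mitotic kinase, was the exception at 48.1 and 50.2 CPM against 49.3 and 52.5 CPM, a log2 fold change of 0.05 (unadjusted p = 0.603 by edgeR). Of 22 genes of meiotic prophase, 20 were lower, with a median of −0.61 and a summed level of 65.2% of control. Among them *Meioc*, a factor of meiotic entry, stood at 49.2 and 71.0 CPM against 35.6 and 28.7 CPM, a log2 fold change of −0.90 (unadjusted p = 0.00132, adjusted p = 0.494 by edgeR and 0.0016 by DESeq2). By DESeq2, 3 genes of that list, *Stra8*, *Meioc* and *Stag3*, had an adjusted p below 0.05, as did 37 of the 20561 loci that edgeR tested. By edgeR, 0 genes of that list did. The differences between the lists were not tested, and the genes of each list share the same 4 libraries.

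**Figure D4:**
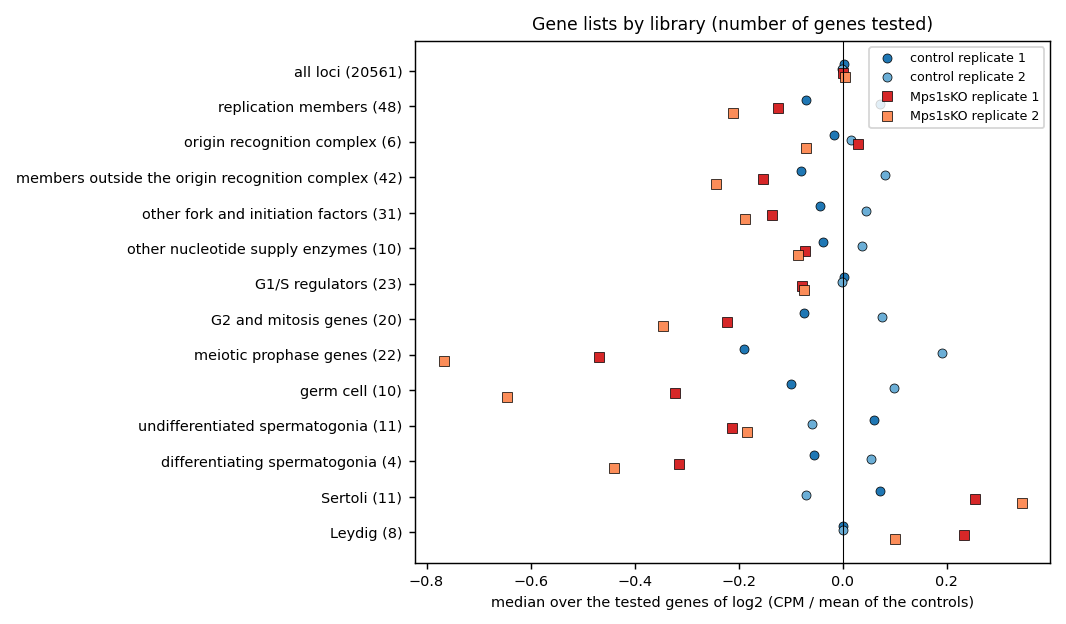
Median over the tested genes of each list of log2 CPM relative to the mean of the control libraries (x axis), 1 symbol per library, circles for control and squares for Mps1sKO, with the number of tested genes in brackets. The squares lie left of the circles for the replication genes (−0.12 and −0.21), farther left for the meiotic prophase and germ cell lists, near 0 for the origin recognition complex, and right of the circles for the Sertoli list.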

How the data were processed

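RNA was measured in 4 libraries of whole testes at P10, 2 control and 2 Mps1sKO, grouped by the genotype in the labels. The authors made NEBNext Ultra libraries and sequenced them as paired reads on a NovaSeq instrument. The submitters' processing notes name HISAT2 2.0.5, featureCounts, DESeq2 1.16.1 and mm10, and the strand setting is not given in the sources used here. The deposited table gives, for each library, the raw count per gene, not normalized, and FPKM values, in which the authors scaled counts by gene length and library size. All 48 of 48 genes have the coordinates of GENCODE M21.

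Differential expression was computed from the counts in R 4.3.3 with edgeR 4.0.16 (filterByExpr, TMM, quasi-likelihood test on genotype, two-sided), on 20561 of 55820 loci, with p adjusted by the Benjamini-Hochberg method over all of them. The common biological coefficient of variation was 0.106. FPKM values were used only to compare levels between genes. Library totals of 23311689 to 28607746 counts put the limit of a count of 0, 3 counts, at 0.105 to 0.129 CPM, for counting error only. Alternatives were, for the test, DESeq2 1.42.0 and limma-voom (limma 3.58.1). For the scaling they were the DESeq2 size factors and the library size alone. For the filter they were none or a minimum of 10 counts per library. For the design they were the replicate number as a block and each library left out in turn. A crossed block, and the counts without genes sharing over 50% of their exonic bases, were added after the data were seen. The edgeR step was tested on simulated counts with known changes.

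The relaxed cut-offs, which the study used for higher genes only, were used in both directions. The genes, lists and tests were chosen with earlier results of these data known. Values per library are given for genes with an unadjusted p below 0.05, and for the lowest and highest fold change of each role. Of each further list, genes named were taken from the 3 with the smallest p and the lowest and highest fold change, and not all of these are named. *Stra8* and *Stag3* were named after their values were seen. Marker lists of the Leydig, myoid, macrophage, endothelial, red blood cell and spermatogonial types were also read.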

Additional observations from a re-analysis of the deposited data

How the results depend on the processing

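The median of the 48 genes lay between −0.19 and −0.16 under every alternative that kept all libraries, and between −0.23 and −0.12 with a library left out. The count of genes lower at the relaxed cut-offs, 12, was 11 to 13 under the other tests, scalings and filters, 7 with the replicate block, and 1 to 20 with a library left out, and 11 without genes sharing over 50% of their exonic bases. A group left with 1 library is assumed to vary like the other group. The same-numbered libraries did not deviate together (correlation −0.19). With only 1 difference between replicates per group, this cannot decide whether the numbers pair the libraries. A crossed block, added after the data were seen, gave 13. The count of higher genes, 0, was 0 to 1 with a library left out, the 1 being *Mcm9*. The count with an adjusted p below 0.05, 0, was 4 without the filter on low counts (*Cdc6*, *Gmnn*, *Prim2* and *Rpa2*) and 8 with the crossed block. The share of all loci past that threshold is given for the main fit only (0.0292%). Whether these counts are particular to the 48 genes was therefore not tested. The further pathway lists, 47 genes called in all, had 31 with the replicate block and 20 to 52 with a library left out, the 20 without control replicate 2. For *Ttk*, −1.26 became −1.27 with at least 10 counts in every library (adjusted p = 0.0573), −1.26 with limma-voom (adjusted p = 0.0745) and −1.26 with the replicate block (adjusted p = 0.224), none past the threshold, and −1.37 to −1.15 with a library left out.

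Of 564 values, 47 named genes under 12 alternatives, 513 kept their direction and side of the threshold, 33 newly passed an adjusted p of 0.05 and 18 changed sign. None of the 47 passed an adjusted p of 0.05 in the main edgeR fit, so keeping that side of the threshold says little. Whether a gene kept its call at the relaxed cut-offs was not part of this count. With only the library size, *Orc5* was −0.016 and *Tyms* −0.00010, and with at least 10 counts *Orc5* was −0.00084. With a library left out, the genes that changed sign ranged from −0.38 to 0.014 (*Orc1*), −0.062 to 0.073 (*Orc5*), −0.24 to 0.19 (*Cdt1*), −0.33 to 0.064 (*Mcm4*), −0.23 to 0.030 (*Gins3*), −0.24 to 0.069 (*Rfc3*), −0.14 to 0.017 (*Rpa1*), −0.0024 to 0.046 (*Tyms*), −0.026 to 0.18 (*Dtymk*) and −0.28 to 0.11 (*Rec8*). The cause was not tested. A total of 31 of the 48 genes had a fold change below 0 under every setting, and the share of all loci that did so is not given here.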

Other observations

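Relatives of the fork proteins, a list of 11 genes written after the data were seen, gave 9 fold changes below 0 and a median of −0.09. At the relaxed cut-offs, 1 gene was lower (4.95% of all tested loci) and 1 higher (3.09%). The higher gene was *Rad9a*, a subunit of the PCNA-like clamp that is loaded at damaged DNA. Its counts were 19 and 59 in the control and 154 and 120 in the Mps1sKO libraries, which is 0.706 and 2.05 CPM against 6.65 and 4.48 CPM. The log2 fold change was 1.996 (standard error 0.423, unadjusted p = 0.00169), with an adjusted p of 0.494 by edgeR and 0.00642 by DESeq2. The gene shares 9.53% of its exonic bases with *Ppp1ca* on the opposite strand, which had 191 and 199 counts against 133 and 174. The other subunits of that clamp, *Rad1* and *Hus1*, had fold changes of −0.05 and 0.01. The lower gene was *Hus1b*, a paralog of *Hus1*, at 2.38 and 2.81 CPM against 1.73 and 1.60 CPM (log2 fold change −0.64, unadjusted p = 0.0261 and adjusted p = 0.510 by edgeR). Among relatives used in meiosis, *Mcmdc2*, an MCM-domain gene, had a fold change of −0.48 and *Meiob*, an RPA-like gene, of −0.57, with 57 to 105 and 31 to 67 counts in a library, and neither passed the test.

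Markers of other cell types were also read. At the relaxed cut-offs, 3 of 11 undifferentiated and 3 of 4 differentiating spermatogonia markers were lower (4.95% of all tested loci). The undifferentiated list was split, with 6 fold changes below 0 and 5 above. Of 8 Leydig markers, 1 was higher at the same cut-offs (3.09% of all tested loci). Of the myoid, macrophage, endothelial and red blood cell markers, 0 passed in either direction by edgeR, and 0 had an unadjusted p below 0.05 by edgeR or DESeq2.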
